A study of Mus musculus with 16 samples.

Results

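Chromatin accessibility at the genes of the YAP and TEAD pathway was examined by ATAC-seq, in which a transposase cuts and tags open DNA, in KC-shSmad4 pancreatic tumor cells growing in the pancreas, the liver or the lungs. A peak was taken as a member when its midpoint lay nearest, within 100 kb, to the annotated start of a protein-coding transcript of Yap1, Wwtr1, Tead1, Tead2, Tead3, Tead4, Ccn1, Ccn2, Ankrd1 or Amotl2. This gave 158 of the 136630 nuclear peaks in the table, and every one of the 10 genes had at least 1. The rule used position and gene name alone. By gene, the table held 9 peaks for Yap1, 22 for Wwtr1, 47 for Tead1, 1 for Tead2, 3 for Tead3, 17 for Tead4, 14 for Ccn1, 15 for Ccn2, 11 for Ankrd1 and 19 for Amotl2. Their mean normalized count over all samples was at least 20 in 141 of the 158, and no peak was left out of the test.

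All cells carried Ptf1a-Cre, which acts in the pancreatic lineage, a Rosa26 LSL-rtTA3-IRES-mKate2 allele and a GFP-linked, doxycycline (Dox)-inducible short hairpin RNA against Smad4, and came from cell lines made from primary tumors and given luciferase. They were injected into the pancreas, the spleen (to reach the liver, with the spleen then removed) or the tail vein (to reach the lungs) of female athymic nude mice of 6 to 8 weeks of age fed Dox, so that Smad4 was off. Endogenous Smad4 was restored by withdrawing Dox after 4 weeks of growth in the pancreas, 5 weeks for liver tumors and 6 weeks for lung tumors, and these Smad4 on tumors were taken 14 days later (the lung columns name day 15). Sorted mKate2-positive cells of 16 mice made up 6 groups, named by organ and by Smad4 state (OFF or ON). The pancreas (Panc_OFF, Panc_ON) and lung (Lung_OFF, Lung_ON) groups had n = 3 and the liver groups (Liv_OFF, Liv_ON) n = 2. Nude mice lack most T cells, the cell line of each sample is not given in the sources used here, and organ cannot be told apart from the route of injection or the time of growth. ATAC-seq does not measure Smad4 transcript, so Smad4 status is as labelled.

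YAP (gene Yap1) and TAZ (gene Wwtr1) are coactivators without a DNA-binding domain of their own. When the Hippo kinase cascade is low they enter the nucleus and bind TEAD factors, which recognize the word CATTCC and drive genes of growth, adhesion and matrix. Ccn1 (also Cyr61) and Ccn2 (also Ctgf) are secreted matricellular proteins, Ankrd1 is a nuclear ankyrin repeat protein, and Amotl2 is a junctional scaffold that binds YAP and holds it in the cytoplasm, a target that feeds back on the pathway. In pancreatic cancer YAP and TEAD are known for sustaining tumor growth.

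Depth was 22994669 to 38218315 reads in peaks per sample, and 1.43% to 3.56% of reads in the table were mitochondrial. The replicates of a group differed by more than sampling noise (chi-square per degree of freedom from 3.72 to 22), so each counted as its own sample. Start-site peaks were present for 7 of 7 markers of ductal epithelium, with a summed normalized count of 39704 to 53081 in the liver groups, 23929 to 35581 in the lung groups and 17277 to 25875 in the pancreas groups. Among hepatocyte markers 2 of 7 had such a peak, and Alb, Apoa1, Serpina1a, Fgb and Cyp2e1 did not; the sums were 719 to 1172 in the liver groups and 233 to 608 in the others. Among lung epithelial markers 1 of 6 had one (summed count of 14 to 60 in all groups), and among leukocyte markers 2 of 6, with none at Ptprc, Cd52, Coro1a or Spi1, and sums of 380 to 482 in the liver groups, 638 to 1062 in the pancreas groups and 824 to 1290 in the lung groups. Acinar markers had 2 of 6 (337 to 485). Fibroblast markers had 6 of 6, with sums of 1747 to 2899 in the pancreas groups, 896 to 1044 in the liver groups and 1055 to 1423 in the lung groups, and endothelial markers 5 of 5, with sums of 151 to 878, the highest in Lung_OFF. What part such cells took in the differences between organs given here was not tested.

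The member peaks were mostly distal. Of the 158, 11 (6.96%) lay within 1000 bp of a start site (promoter), against 10.4% of all peaks, 79 (50%) in introns, 67 (42.4%) between genes and 1 in an exon. The TEAD word CATTCC, searched on either strand, occurred in 77 member peaks (48.7%) and in 39.8% of all peaks, but member peaks were also wider (median 720 bp against 588 bp), and per kilobase there were 0.837 and 0.684 words. The AP-1 word TGANTCA occurred in 52.5% of member peaks and 51.4% of all peaks, and the RUNX word TGTGGT, on either strand, in 50% and 48.8%. TGANTCA ends in the bases with which CATTCC begins, so these words can overlap. A match describes the sequence and does not show that a factor was bound.

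The sequences below are 150-base windows, on the plus strand of GRCm38.p6 (the mm10 assembly), from peaks named below for their small p-values, with the TEAD and AP-1 words in capitals. Each window was placed where its peak holds the most TEAD words and then the most AP-1 words, so the words inside a window were selected and the rest of the peak may hold others. The first 3 windows come from peaks more open in the liver than in the lungs with Smad4 off.
Tead1 intron 26.7 kb, chr7:112705966-112706115: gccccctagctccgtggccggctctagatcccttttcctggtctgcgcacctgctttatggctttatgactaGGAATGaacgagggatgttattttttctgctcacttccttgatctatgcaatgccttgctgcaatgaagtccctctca
Amotl2 intron 8.59 kb, chr9:102726039-102726188: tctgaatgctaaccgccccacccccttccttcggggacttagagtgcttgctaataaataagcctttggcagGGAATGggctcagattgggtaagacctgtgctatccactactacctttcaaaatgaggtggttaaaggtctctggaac
Amotl2 downstream 54.1 kb, chr9:102771295-102771444: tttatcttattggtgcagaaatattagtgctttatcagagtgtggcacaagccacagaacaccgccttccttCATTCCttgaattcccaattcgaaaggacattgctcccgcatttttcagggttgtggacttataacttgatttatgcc

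The next 5 windows come from peaks less open in the liver than in the lungs, of which the Ccn2 peak is named for its difference with Smad4 on and the others for theirs with Smad4 off.
Wwtr1 exon 74 kb, chr3:57501686-57501835: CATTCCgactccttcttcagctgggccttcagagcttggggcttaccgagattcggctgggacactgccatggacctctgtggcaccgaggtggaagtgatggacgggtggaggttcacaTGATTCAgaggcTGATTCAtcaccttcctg
Wwtr1 intron 64.4 kb, chr3:57512370-57512519: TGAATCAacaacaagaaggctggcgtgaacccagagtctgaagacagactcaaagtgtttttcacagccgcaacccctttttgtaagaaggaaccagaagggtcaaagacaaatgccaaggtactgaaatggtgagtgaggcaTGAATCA
Ccn1 downstream 8.97 kb, chr3:145641174-145641323: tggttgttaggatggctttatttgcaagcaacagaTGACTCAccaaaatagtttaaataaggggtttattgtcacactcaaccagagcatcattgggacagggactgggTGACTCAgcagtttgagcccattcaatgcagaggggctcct
Ccn1 upstream 35.2 kb, chr3:145684740-145684889: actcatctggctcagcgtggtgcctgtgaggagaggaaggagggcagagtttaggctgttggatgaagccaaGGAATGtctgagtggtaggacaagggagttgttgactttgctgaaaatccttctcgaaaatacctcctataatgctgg
Ccn2 upstream 14.2 kb, chr10:24581132-24581281: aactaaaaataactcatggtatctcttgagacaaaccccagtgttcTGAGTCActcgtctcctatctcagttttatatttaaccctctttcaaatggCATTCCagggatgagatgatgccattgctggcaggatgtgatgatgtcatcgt

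The last pair comes from peaks that lost accessibility on Smad4 restoration in the pancreas, with 1 and 2 TEAD words in the window. Not printed are the windows of the Tead1 peaks at 18 kb, with 0 TEAD words, and at 18.9 kb, with 1, also lower there. Windows of the named Tead4 peak at 2.07 kb and Tead1 peaks at 75.3 kb and 1.46 kb, with 0 TEAD words each, are not printed either.
Tead1 intron 29 kb, chr7:112788105-112788254: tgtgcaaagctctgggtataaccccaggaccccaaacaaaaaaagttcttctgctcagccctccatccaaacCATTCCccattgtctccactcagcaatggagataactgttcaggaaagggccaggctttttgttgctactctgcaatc
Tead4 intron 49.3 kb, chr6:128225516-128225665: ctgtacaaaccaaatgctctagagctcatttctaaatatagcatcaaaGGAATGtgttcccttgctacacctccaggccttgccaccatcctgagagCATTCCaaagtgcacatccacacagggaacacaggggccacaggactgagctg

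In the 250 bases before the start given by RefSeq (build GRCm38.p6), 7 of the 10 genes had an entry and Tead1, Tead4 and Ccn2 are named only. The TEAD word was present in 12.6% of 32851 such promoter windows. The window of Ccn1, one of the best known YAP targets, lies on the minus strand inside the Ccn1 start-site peak and holds it once, starting at base -103 counted from the transcript start.
Ccn1 promoter, chr3:145649986-145650235: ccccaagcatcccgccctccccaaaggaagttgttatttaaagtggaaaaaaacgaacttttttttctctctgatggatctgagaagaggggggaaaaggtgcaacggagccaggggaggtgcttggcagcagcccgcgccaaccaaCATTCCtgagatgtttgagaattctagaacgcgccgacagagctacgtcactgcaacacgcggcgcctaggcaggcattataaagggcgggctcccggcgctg

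The start-site peaks, defined as the peak nearest the annotated 5′ end of each gene, had counts in every sample and few organ differences that passed the thresholds. With Smad4 off, 1 of 10 was called between liver and lungs, 1 of 10 between liver and pancreas and 1 of 10 between lungs and pancreas. A peak counted as called here when limma gave a log2 fold change of 0.58 or more in size with an adjusted p no higher than 0.1, after Benjamini-Hochberg adjustment over all 136630 peaks, on the log2(normalized count + 1) scale. Over all promoter peaks, 27%, 31.8% and 5.97% were called in these comparisons, and over all other peaks 52.3%, 61.6% and 18.7%. Promoter peaks as a whole were shifted toward the liver, by a median of 0.4 on the log2 scale over the lungs, and the median over the 10 start-site peaks was 0.21. The calls at start sites depended on the centering. When the median level of the peaks within about 2.5 Mb was removed in each sample, Yap1 (0.75), Ccn1 (0.74) and Ccn2 (0.67) passed as higher and Tead2 (-0.62) as lower in the liver than in the lungs.

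At the Yap1 start site (chr9:8002484-8005286) normalized counts were 1342, 1391 and 1447 in Panc_OFF, 1570 and 1889 in Liv_OFF and 1181, 1474 and 1315 in Lung_OFF. The liver samples lay above the others, by 0.39 on the log2 scale over the lungs (SE 0.11, adjusted p = 0.00826), which did not reach the fold threshold. At Wwtr1 (chr3:57573965-57577054) the values were 2127, 2256 and 2227 in Panc_OFF, 2359 and 2647 in Liv_OFF and 2078, 2106 and 2220 in Lung_OFF, a difference of 0.23 between liver and lungs (adjusted p = 0.0844). At Tead1 (chr7:112678370-112682119) they were 1492, 1508 and 1590 in Panc_OFF, 1459 and 1520 in Liv_OFF and 1441, 1378 and 1194 in Lung_OFF, without a call.

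Tead3 was the start-site peak called between liver and lungs (chr17:28349492-28351734). Its normalized counts were 1973 and 2342 in Liv_OFF against 1395, 1513 and 1406 in Lung_OFF, a log2 fold change of 0.58 (SE 0.10, adjusted p = 0.000369), right at the threshold. The call was lost with a pseudocount of 10 (0.58), with TMM factors (0.52), in edgeR (0.51), with the surrounding level removed (0.37), with a GC correction (0.31) and after quantile normalization (0.19), and without Liv_OFF replicate 2 (0.46) or without Lung_OFF replicate 1 or 3 (0.56 each). Tead2 was the one called between liver and pancreas (chr7:45215490-45216846, the sole Tead2 peak). Its normalized counts were 301 and 270 in Liv_OFF and 477, 504 and 465 in Panc_OFF, a log2 fold change of -0.75 (adjusted p = 0.00126). The difference was -0.97 with Smad4 on (adjusted p = 0.000204). The Tead2 peak was thus lower in the liver than in the pancreas in both Smad4 states, with groups that did not overlap.

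Tead4 was the one called between lungs and pancreas with Smad4 off (chr6:128295900-128302126), and that call depended on single samples and on the settings. Its normalized counts were 8397, 3618 and 2390 in Lung_OFF, 3083, 2055 and 1968 in Panc_OFF and 2927 and 3270 in Liv_OFF. The log2 fold change of lungs over pancreas was 0.85 (adjusted p = 0.0776) and was 0.34, without a call, when Lung_OFF replicate 1 was left out. The call was also lost without Panc_OFF replicate 2 (0.76) or 3 (0.73), without Lung_OFF replicate 2 (0.95) and without Panc_ON replicate 1 (0.85). So it was with a GC correction (0.88), after quantile normalization (0.73) and with the surrounding level removed (0.31). In Lung_OFF replicate 1 the peaks within 2.5 Mb of Tead4, its own peaks left out, were raised as a whole. Their median was 1.36 on the log2 scale over the mean of all samples, against 0.28 and -0.31 in the other Lung_OFF samples.

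Among the target genes, the Ccn1 start-site peak (chr3:145644169-145653923) had normalized counts of 3583, 4027 and 3901 in Panc_OFF, 3066 and 3700 in Liv_OFF and 2587, 3030 and 3203 in Lung_OFF. That of Ccn2 (chr10:24595007-24600173) had 1822, 1738 and 1672 in Panc_OFF, 1739 and 1495 in Liv_OFF and 944, 1344 and 1278 in Lung_OFF. The lungs had the lowest mean at both, with a log2 fold change of -0.57 against the pancreas for Ccn2 (adjusted p = 0.0219), just short of the fold threshold; it passed without Lung_OFF replicate 2 (-0.67) or 3 (-0.63), without Panc_OFF replicate 3 (-0.60) and with TMM factors (-0.59). That of Ankrd1 (chr19:36118931-36121372) had 825, 1203 and 1089 in Panc_OFF, 879 and 681 in Liv_OFF and 823, 948 and 1001 in Lung_OFF, and the 3 groups overlapped. That of Amotl2 (chr9:102716905-102719615) had 2334, 2473 and 2381 in Panc_OFF, 2886 and 3103 in Liv_OFF and 1935, 2321 and 2369 in Lung_OFF, a log2 fold change of liver over lungs of 0.44 (adjusted p = 0.00249) that did not reach the fold threshold. On Smad4 restoration, limma called 0 of the 10 start-site peaks in any organ, and their median log2 fold changes were 0.05 (pancreas), -0.12 (liver) and 0.05 (lungs).

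**Figure D1:**
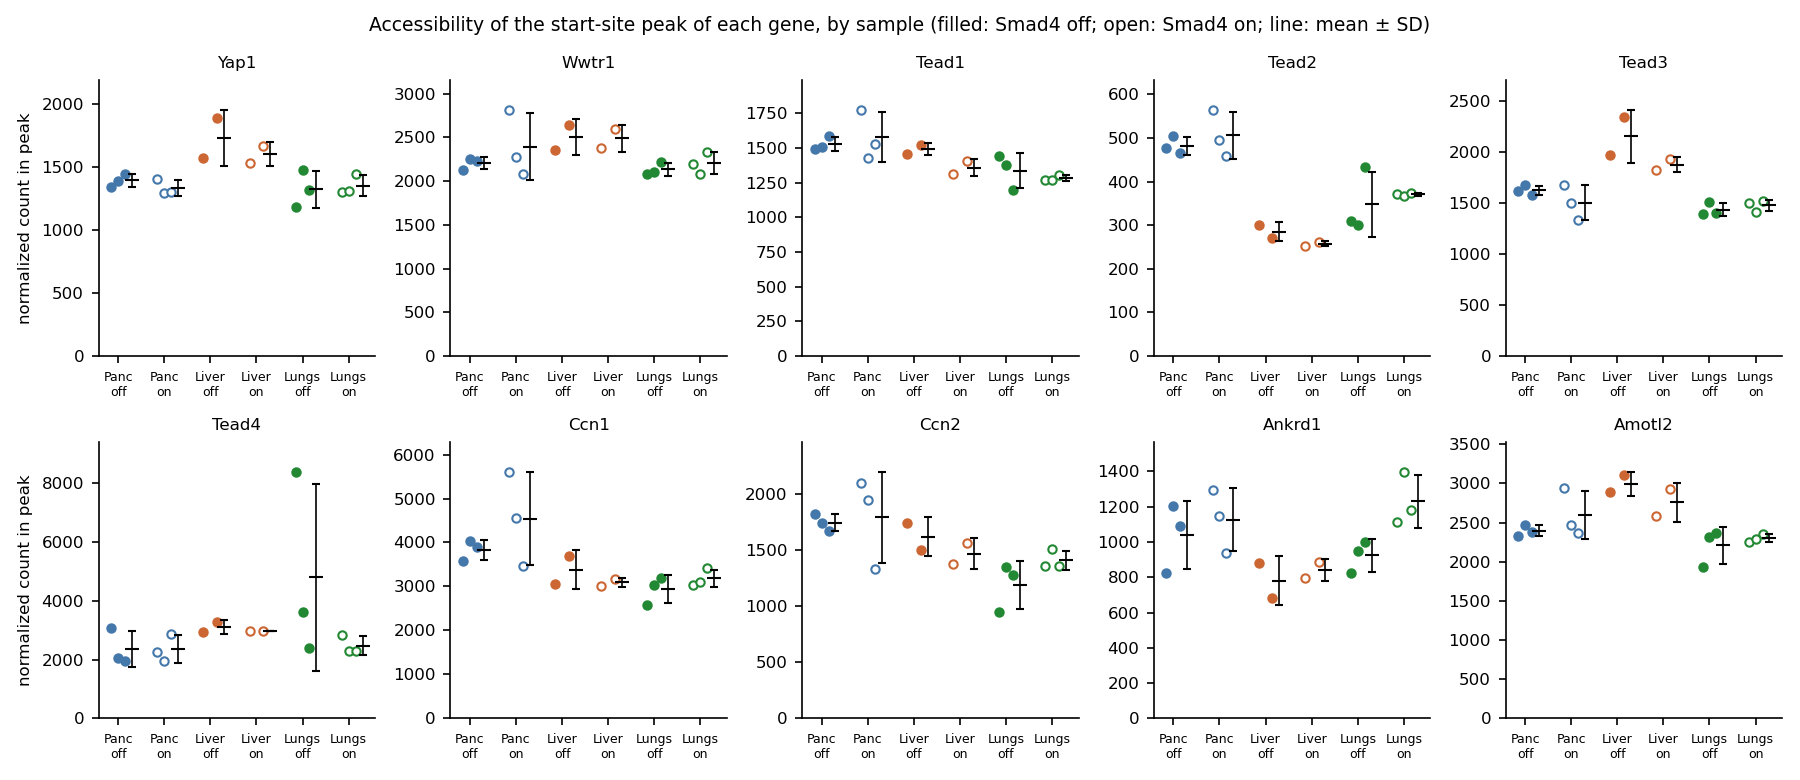
Normalized count (y axis, from 0) of the start-site peak of each of the 10 genes in each sample, by organ and Smad4 state (x axis), with filled points for Smad4 off, open points for Smad4 on and a line for the group mean with its SD. Tead2 has its lowest Smad4 off mean in the liver and Tead3 and Amotl2 their highest, the Lung_OFF samples of Ccn2 lie below its other Smad4 off samples, and 1 Lung_OFF sample of Tead4 stands at 8397.

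Most calls lay in the distal peaks of the same genes. Between liver and lungs with Smad4 off, 72 of 158 member peaks were called, 27 higher in the liver (17.1%, against 22.9% of all peaks) and 45 lower (28.5%, against 26.8%). The share called was near that of all peaks, and the median log2 fold change was -0.06 over the members and 0 over all peaks. Outside the start sites 71 of 148 were called (48%). Replicates of the groups did not overlap for 92 member peaks (58.2%), against 65.9% of all peaks. The distal peaks named by rule below were drawn from called peaks without such overlap, so their separation in that comparison was selected. When the median level of the surrounding peaks was removed in each sample, 40 were called higher and 41 lower, so the excess of lower calls was not found under that centering.

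Wwtr1 had 3 peaks called higher and 9 lower in the liver than in the lungs, Tead1 had 7 and 17, Ccn1 2 and 4, Ccn2 2 and 6, and Ankrd1 0 and 3. Amotl2 went the other way, with 9 higher and 2 lower. Yap1 had 1 in each direction, and Tead3 had 2 higher. Tead4 had 1 higher and 3 lower, which became 2 higher and 1 lower without Lung_OFF replicate 1. That the genes differ from one another in this was not tested. Of all 158 member peaks, 40 (25.3%) were called lower and 19 (12%) higher in the liver than in both other organs with Smad4 off, against 20.8% and 19.8% of all peaks. These had 16 lower peaks at Tead1, 9 at Wwtr1 and 6 at Ccn2, and 8 higher peaks at Amotl2. A further 56 (35.4%) were called in none of the 3 comparisons, against 31.3% of all peaks.

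**Figure D2:**
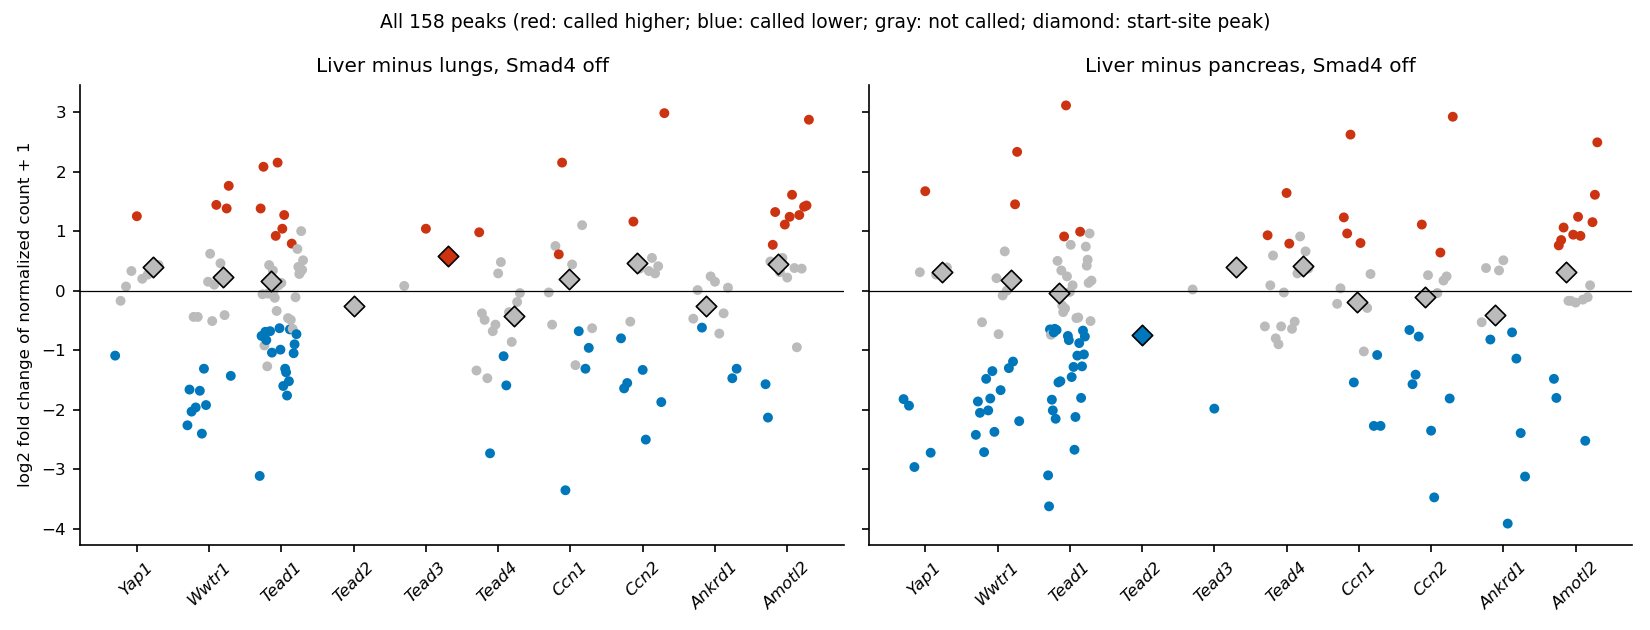
Log2 fold change (y axis) of all 158 peaks by gene (x axis, peaks of a gene in genome order) for liver minus lungs and liver minus pancreas with Smad4 off, with called peaks in red (higher in the liver) and blue (lower) and start-site peaks as diamonds. The diamonds lie near 0, while other peaks of the same gene spread from -3.35 to 2.98 in the left panel and from -3.91 to 3.11 in the right.

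Of the coactivator genes, Wwtr1 carried the called peak with the smallest p. In its exonic peak 74 kb into the gene (chr3:57500912-57502790) normalized counts were 126 and 194 in Liv_OFF, 936, 516 and 887 in Lung_OFF and 750, 866 and 921 in Panc_OFF. Both liver samples lay well below every other Smad4 off sample, with a log2 fold change of -2.26 against the lungs (SE 0.24, adjusted p = 1.77e-05) and of -2.42 against the pancreas (adjusted p = 6.32e-06). A peak of the same gene 64.4 kb in (chr3:57509913-57512946) had 110 and 106 in Liv_OFF, 564, 275 and 488 in Lung_OFF and 586, 728 and 841 in Panc_OFF. It was lower in the liver than in the lungs by -1.96 (SE 0.31, adjusted p = 0.000217), and the groups did not overlap. Peaks within 2.5 Mb of Wwtr1 were themselves low in Liv_OFF, by a median of -0.22 and -0.42.

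Of the TEAD genes, Tead1 held both kinds of peak. Its intronic peak 26.7 kb from a start site (chr7:112705620-112706582), the first sequence above, had normalized counts of 606 and 453 in Liv_OFF and 307 and 433 in Liv_ON. In the lungs it had 86.5, 158 and 119 in Lung_OFF and 76.4, 128 and 126 in Lung_ON, and in the pancreas 68.3, 61.6 and 50.9 in Panc_OFF and 54.2, 55.7 and 40.6 in Panc_ON. Every liver sample exceeded every other sample, by 2.15 on the log2 scale over the lungs (SE 0.31, adjusted p = 0.000102) and 3.11 over the pancreas (adjusted p = 6.26e-06) with Smad4 off, and by 1.76 and 2.85 with Smad4 on. It was also higher in the lungs than in the pancreas, by 0.96 with Smad4 off (adjusted p = 0.0309). Another intronic peak of Tead1, 1.46 kb from an annotated start (chr7:112760567-112761324), had the reverse order, with 86.4 and 48.8 in Liv_OFF, 223, 177 and 279 in Lung_OFF and 281, 296 and 282 in Panc_OFF. It was lower in the liver than in the pancreas by -2.12 with Smad4 off (adjusted p = 7.71e-05) and by -2.52 with Smad4 on (adjusted p = 2.07e-05).

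Of the target genes, Amotl2 had the most peaks more open in the liver. Its intronic peak at 8.59 kb (chr9:102725715-102726791) had normalized counts of 1128 and 1032 in Liv_OFF, 367, 614 and 554 in Lung_OFF and 529, 637 and 522 in Panc_OFF, a log2 fold change of 1.11 over the lungs (SE 0.19, adjusted p = 0.000378). Its intergenic peak at 54.1 kb (chr9:102771295-102772148) had 623 and 747 in Liv_OFF, 162, 373 and 269 in Lung_OFF and 199, 250 and 222 in Panc_OFF, a log2 fold change of 1.43 over the lungs (SE 0.27, adjusted p = 0.000641). Both liver samples were above all Smad4 off samples of the other organs at these peaks.

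Ccn1 had distal peaks that were lower in the liver, whereas its start-site peak was not called. The intergenic peak at 8.97 kb (chr3:145640344-145641673) had normalized counts of 48.1 and 29.3 in Liv_OFF, 429, 254 and 551 in Lung_OFF and 175, 92.9 and 84.3 in Panc_OFF. It was called in all 3 comparisons, with the lungs highest, and the log2 fold change of liver over lungs was -3.35 (SE 0.49, adjusted p = 0.000119). The peak 35.2 kb upstream (chr3:145684650-145685625) had 281 and 355 in Liv_OFF, 733, 527 and 603 in Lung_OFF and 683, 668 and 654 in Panc_OFF, a log2 fold change of -0.96 against the lungs (SE 0.15, adjusted p = 0.000158). Peaks within 2.5 Mb of Ccn1 were lower by a median of -0.56 and -0.57 in the Liv_OFF samples, and with that level removed the difference at the upstream peak was -0.42, without a call.

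**Figure D3:**
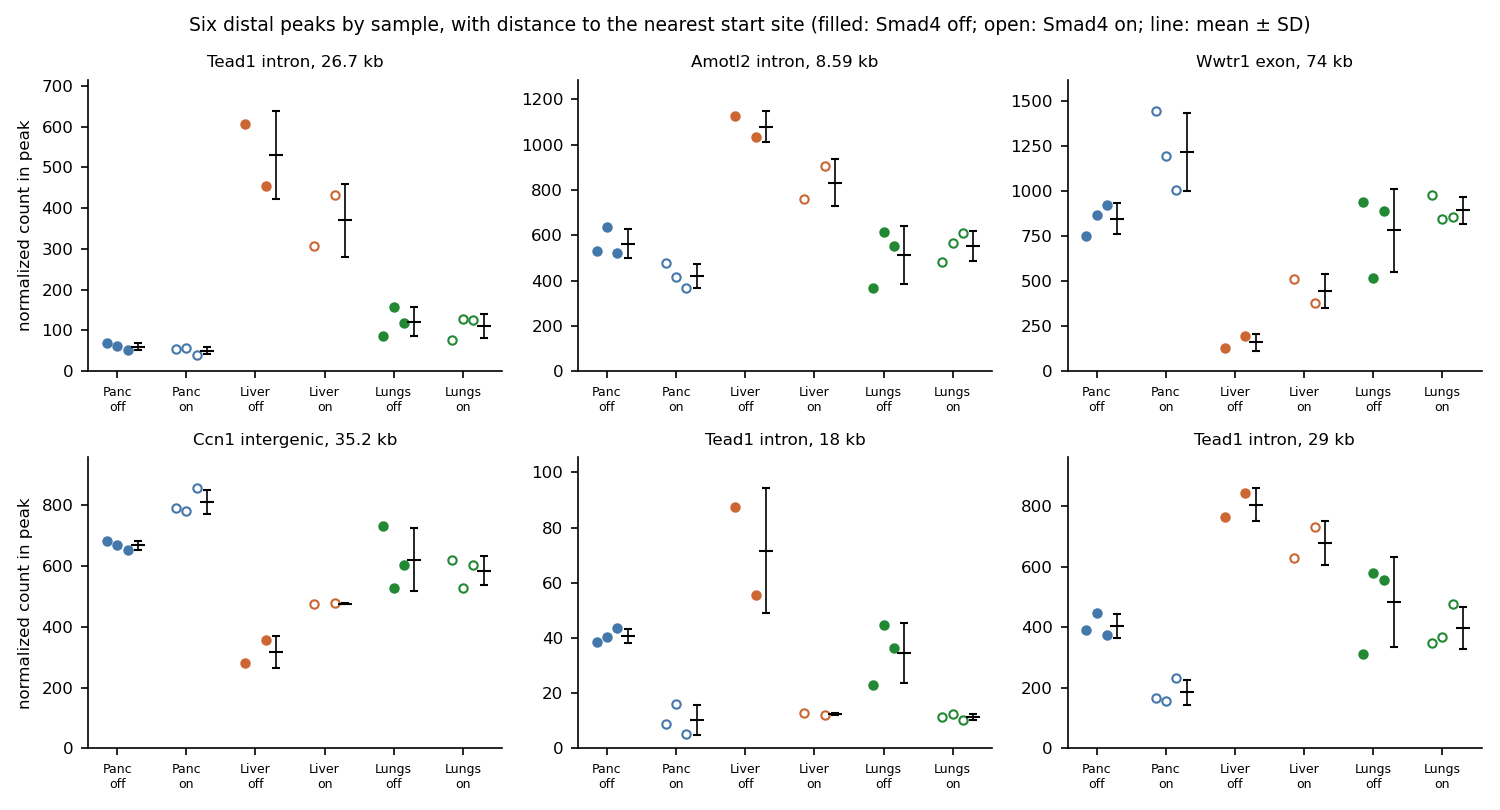
Normalized count (y axis, from 0) in each sample of 6 distal peaks, titled with gene, annotation and distance to the nearest start site, with filled points for Smad4 off, open points for Smad4 on and a line for the mean with its SD. The liver samples (orange) stand above the others at the Tead1 26.7 kb and Amotl2 peaks and below them at the Wwtr1 and Ccn1 peaks, and the Tead1 peak at 18 kb is lower with Smad4 on in each organ.

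Against the pancreas with Smad4 off, 88 member peaks were called in the liver, 25 higher (against 26.2% of all peaks) and 63 lower (39.9% of the members, against 32.3% of all peaks). With the level of the surrounding peaks removed these were 37 and 54. By role, 3 peaks of the coactivators were higher and 17 lower, 6 of the TEAD genes higher and 26 lower, and 16 of the targets higher and 20 lower. Of these targets Ankrd1 had 6 lower peaks and no higher one, and Amotl2 9 higher and 3 lower. Peaks beyond 20 kb from a start site were called in 57 of 85 cases (67.1%) and nearer ones in 31 of 73 (42.5%), against 62.6% and 52.5% of all peaks that had a gene within 100 kb. Of the marker sums given above, those of fibroblasts, leukocytes and endothelium were also lower in the liver than in the pancreas. Those of ductal epithelium and hepatocytes were higher. Their part in these calls was not tested.

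Lungs and pancreas were closer to each other. With Smad4 off, 29 member peaks were called between them, 6 higher in the lungs (against 6.59% of all peaks) and 23 lower (14.6% of the members, against 10.7%). All 4 Tead4 calls were higher in the lungs, and without Lung_OFF replicate 1 Tead4 kept 1. The number of calls was 15 without Panc_OFF replicate 2 and 12 without Panc_OFF replicate 3. DESeq2 called 11 higher and 22 lower. The intronic Tead4 peak at 2.07 kb (chr6:128277170-128278126) had normalized counts of 260, 180 and 107 in Lung_OFF and 92.2, 52.7 and 60.2 in Panc_OFF, a log2 fold change of 1.35 (adjusted p = 0.0108). The most negative fold change among the members was at an intergenic Tead1 peak 75.3 kb upstream (chr7:112603727-112604327). It had 84.5, 121 and 132 in Panc_OFF and 80, 90.4 and 30.7 in Panc_ON, but 4.6, 1.09 and 2.58 in Lung_OFF and 14.8 and 4.18 in Liv_OFF, so it was open in the pancreas and close to the level of a few reads in the other organs. Its log2 fold change of lungs over pancreas was -5.01 with Smad4 off (SE 0.59, adjusted p = 0.000284) and -4.07 with Smad4 on (adjusted p = 0.000499). At counts this low the size depends on the pseudocount, and with 10 in place of 1 these were -3.25 and -2.46.

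With Smad4 on, fewer member peaks separated liver and lungs. Between liver and lungs 47 member peaks were called, 20 higher in the liver (against 17.6% of all peaks) and 27 lower (against 18.2%), and without Liv_ON replicate 2 the number was 17, with 9 higher and 8 lower. Between liver and pancreas 88 were called, 26 higher (against 27.1% of all peaks) and 62 lower (39.2% of the members, against 32.2%). Between lungs and pancreas 37 were called, 7 higher (against 12.8%) and 30 lower (19% of the members, against 14.9%), or 13 and 29 with the level of the surrounding peaks removed. Of the 72 liver and lung calls with Smad4 off, 40 (55.6%) were also made with Smad4 on, which is 85.1% of the 47 there. Over all peaks these shares were 61.8% and 85.8%. For liver and pancreas 75 peaks were called in both states (85.2% of each list, against 85.1% and 83.9% over all peaks), and for lungs and pancreas 20 (69% and 54.1%, against 63.6% and 39.7%). No member peak was called in opposite directions in the Smad4 states, and this was also rare over all peaks. In the same order of comparisons, 15 of the 67891, 25 of the 79962 and 75 of the 23685 peaks called with Smad4 off were called the opposite way with Smad4 on. These lists use different samples but 1 fit.

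Among the peaks with Smad4 on, the Ccn2 upstream peak at 14.2 kb (chr10:24580924-24581527) had the smallest p of those lower in the liver than in the lungs. Its normalized counts were 86.2 and 54.8 in Liv_ON, 225, 200 and 202 in Lung_ON and 212, 228 and 199 in Panc_ON, a log2 fold change of -1.59 against the lungs (SE 0.27, adjusted p = 0.000671). The liver had been lower to the same extent with Smad4 off, by -1.55. Between lungs and pancreas, the Tead1 peak at 29 kb (chr7:112788001-112788985) was higher in the lungs by 1.10 (adjusted p = 0.00223), with 348, 366 and 476 in Lung_ON and 167, 157 and 232 in Panc_ON.

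**Figure D4:**
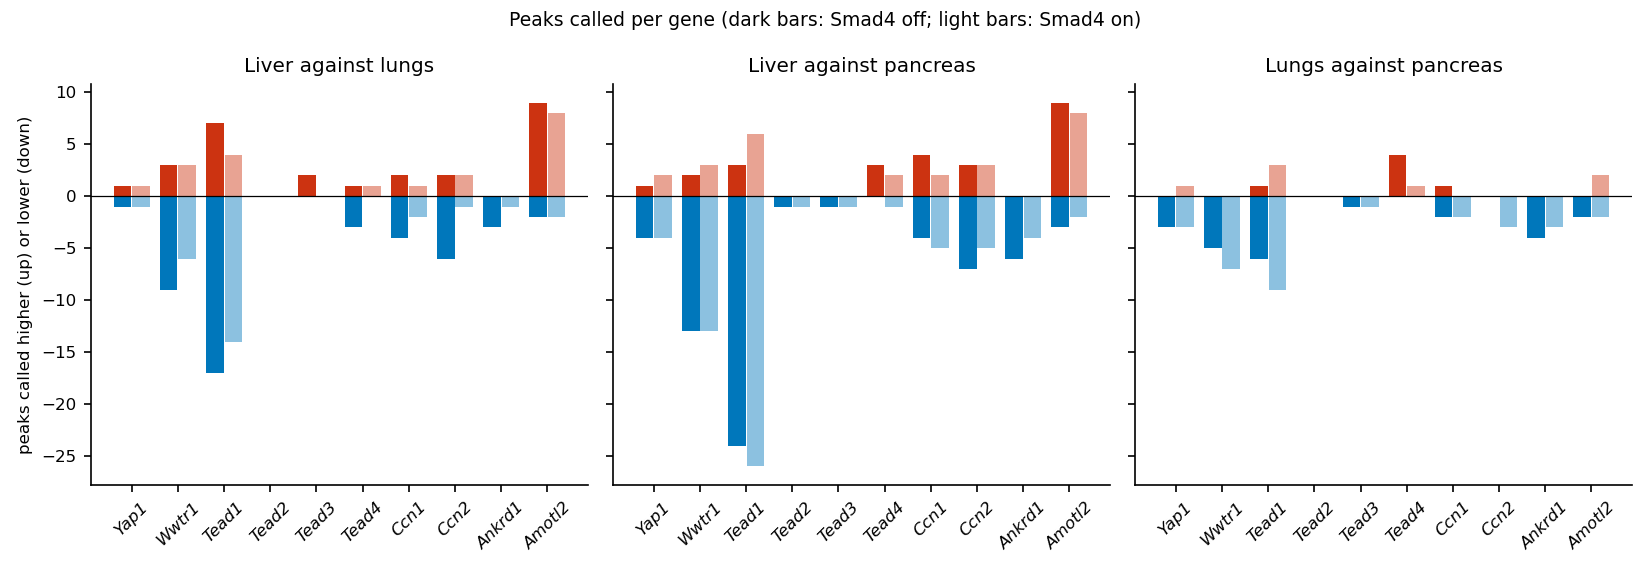
Number of peaks called higher (upward bars) or lower (downward bars) per gene (x axis) in the first-named organ of each panel, with dark bars for Smad4 off and light bars for Smad4 on. Wwtr1 and Tead1 bars point mainly down in the liver panels and Amotl2 bars mainly up, in both Smad4 states.

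Restoration of Smad4 changed few of these peaks. Unadjusted limma p-values under 0.05 were found for 25 of the 158 member peaks in the pancreas, where 16.9% of all peaks had one. In the liver they were found for 24 of the 158, where 12.1% of all peaks had one. In the pancreas, 5 of 158 were called, all lower with Smad4 on (3.16%, against 3.06% of all peaks), and none higher (against 0.364%). In the liver 1 was called higher (against 0.462% of all peaks) and 1 lower (against 0.0886%). In the lungs no member peak was called in limma, where 0.00146% of all peaks were higher and 0.0022% lower, although 15 member peaks had an unadjusted p under 0.05, as did 7.11% of all peaks. There edgeR called 0 member peaks and DESeq2 called 1 (0.73% of all peaks). Because the lung samples of the same number deviated together, the number was also entered as a block for the lungs, a fit added after the data were seen. The lungs then still had 0 calls, the pancreas had 11 (6.96%, 5 higher and 6 lower, against 6.51% of all peaks) and the liver 6 (3.8%, 5 higher and 1 lower, against 1.47% of all peaks). Among the pancreas peaks higher under that block were 3 of Wwtr1 and 1 of Ccn1, with log2 fold changes of 0.8 to 0.85. DESeq2 called 10 in the pancreas (6.33%, 3 higher and 7 lower, against 6.8% of all peaks) and 5 in the liver, all higher (3.16%, against 2.33% of all peaks). Of all liver calls, 81.3% were higher under the block and 82% in DESeq2.

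Tead1 held 3 of the 5 pancreas calls. Its intronic peak at 18 kb (chr7:112723841-112724232) had normalized counts of 38.4, 40.2 and 43.5 in Panc_OFF and 8.89, 16.1 and 5.37 in Panc_ON, a log2 fold change of -2.02 (SE 0.38, adjusted p = 0.0194). In the liver it had 87.6 and 55.7 with Smad4 off and 12.8 and 12.2 with Smad4 on, a log2 fold change of -2.39 (SE 0.47, adjusted p = 0.0578). In the lungs it had 23, 44.6 and 36.2 and then 11.2, 12.5 and 10.3, a log2 fold change of -1.49 that did not pass (adjusted p = 0.356). The Smad4 on samples were thus below the Smad4 off samples of their own organ without overlap in all 3 organs, at low counts, and with a pseudocount of 10 the log2 fold changes were -1.37 in the pancreas and -1.83 in the liver.

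Its intronic peak at 29 kb had 390, 448 and 375 in Panc_OFF, against the Panc_ON values given above, a log2 fold change of -1.14 (SE 0.22, adjusted p = 0.0194), with -0.25 in the liver and -0.24 in the lungs, neither called. An intergenic peak 18.9 kb upstream (chr7:112660143-112660708) had 86.3, 92.9 and 88.9 in Panc_OFF and 32, 45.8 and 36.8 in Panc_ON, a log2 fold change of -1.22 (SE 0.26, adjusted p = 0.0315). Tead4 held another pancreas call, in an intron at 49.3 kb (chr6:128224655-128227975), with 909, 660 and 607 in Panc_OFF and 374, 323 and 381 in Panc_ON, a log2 fold change of -0.99 (SE 0.19, adjusted p = 0.0213). The fifth call was at an intergenic Ccn1 peak at 35.3 kb, named after its values were seen, with 490, 533 and 443 in Panc_OFF and 330, 286 and 350 in Panc_ON (-0.60, SE 0.15, adjusted p = 0.0563). At all 5 peaks the Panc_ON samples lay below the Panc_OFF samples, which for the first 4 was a condition of being named. In this comparison the groups did not overlap at 27.8% of member peaks and 25.5% of all peaks. The calls were sensitive to single libraries, with 1 left without Panc_OFF replicate 2, 2 without Panc_OFF replicate 1 and 3 without Panc_ON replicate 1. The fifth call, at Ccn1, was among those lost in each of these fits, and its log2 fold change of -0.60 lay close to the fold threshold. Of the other 4, those at 18 kb and 29 kb were lost without Panc_OFF replicate 2, that at 18.9 kb without Panc_OFF replicate 1 or 2 or Panc_ON replicate 1, and that at Tead4 without Panc_OFF replicate 1, with log2 fold changes between -2.03 and -0.82 in those fits.

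The liver call that rose on restoration was the Wwtr1 exonic peak. From 126 and 194 in Liv_OFF it went to 511 and 378 in Liv_ON, a log2 fold change of 1.49 (SE 0.26, adjusted p = 0.043), which left it below the 979, 842 and 853 of Lung_ON. In the pancreas it had 1441, 1195 and 1006 with Smad4 on, a log2 fold change of 0.51 (adjusted p = 0.238), and in the lungs the change was 0.24 (adjusted p = 0.9). The liver call was lost without Liv_OFF replicate 1 (log2 fold change 1.18) or Liv_ON replicate 1 (1.27), and so was that of the Tead1 peak at 18 kb (-2.07 and -2.43), which left 0 calls in either case. There were 4 calls without Liv_ON replicate 2 and 5 without Lung_OFF replicate 2.

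Whether the effect of restoration differed between organs was tested directly. In the limma F test of the interaction 0 of 158 passed, as for all peaks (0%), and the smallest adjusted p of a member was 0.564. An unadjusted p under 0.05 was reached by 11 member peaks (6.96%) and by 7.55% of all peaks. Without Lung_OFF replicate 2 there was 1. A missed threshold does not show that the organs respond alike.

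Levels summed over all peaks of a gene give the order of the organs for each locus, as a description, with the spread over samples. For Amotl2 the summed normalized count was 8371 ± 305 (SD, n = 2) in Liv_OFF, 5733 ± 541 (n = 3) in Panc_OFF and 5180 ± 1189 (n = 3) in Lung_OFF, so the liver stood above the others and the lower pair lay within their spread. For Wwtr1 the liver was lowest, with 3688 ± 348 in Liv_OFF, 4549 ± 656 in Lung_OFF and 5085 ± 380 in Panc_OFF, where the lung samples overlapped both other groups. For Tead1 it was 14544 ± 495 in Panc_OFF, 13510 ± 628 in Lung_OFF and 13473 ± 648 in Liv_OFF, neighbors that do not differ beyond their spread. For Yap1 it was 2298 ± 166 in Liv_OFF, 2207 ± 256 in Panc_OFF and 1750 ± 169 in Lung_OFF, with the lung samples below all others and liver and pancreas overlapping. For Tead2 it was 482 ± 19.9 in Panc_OFF, 348 ± 74.3 in Lung_OFF and 286 ± 21.8 in Liv_OFF, where liver and lungs overlapped. For Tead4 the Lung_OFF samples had 14337, 6711 and 4280, against 3893 to 5795 in Panc_OFF and 5951 and 6458 in Liv_OFF, so their order cannot be read with the first sample included. Ccn1, Ccn2, Ankrd1 and Tead3 ran from 5507 to 6042, 6742 to 8544, 3157 to 3910 and 2504 to 3352 in the group means of the Smad4 off samples.

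**Figure D5:**
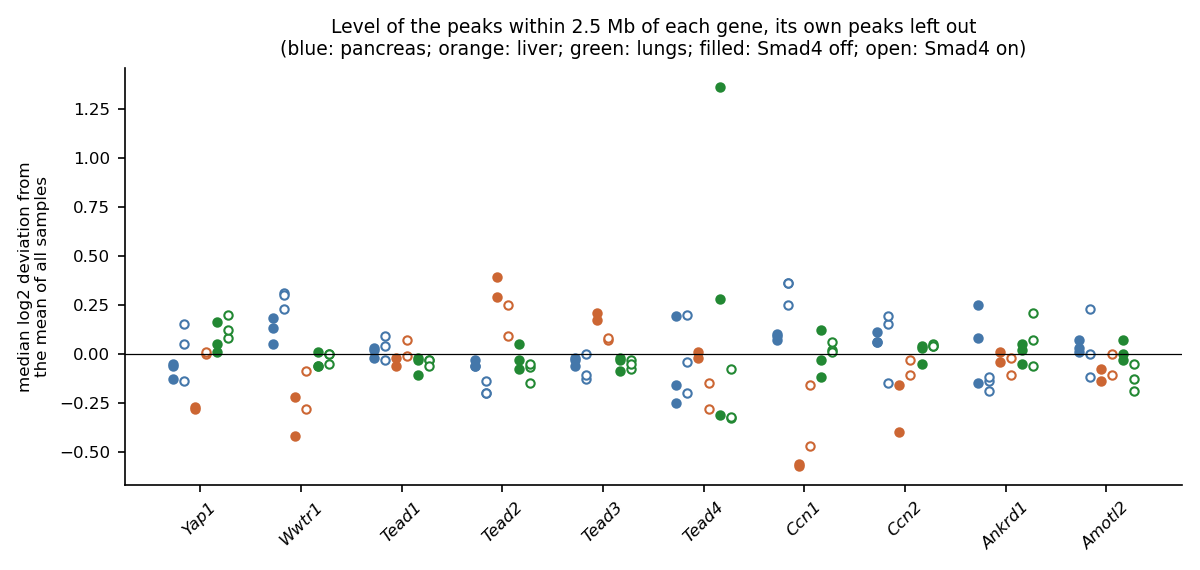
Median log2 deviation from the mean of all samples (y axis) of the peaks within 2.5 Mb of each gene (x axis), its own peaks left out, with 1 point per sample. Values lie between -0.57 and 0.39 except at Tead4, where Lung_OFF replicate 1 stands at 1.36.

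Across the 16 samples, which share organ and depth, the loci most alike in summed level among the members were Yap1 and Tead3 (Pearson r = 0.84) and Ccn2 and Amotl2 (0.83), whereas Tead4 had r between -0.68 and -0.17 with the others. The Tead4 correlations here and below include Lung_OFF replicate 1, which stood at 14337, and were not recalculated without it. Among the 7301 to 7527 genes with at least 5 peaks on other chromosomes, the pair closest to each member, by Pearson r over the 16 samples, was as follows. For Yap1 these were Eed (0.941) and Picalm (0.931), and for Wwtr1 Rsu1 (0.977) and Htra1 (0.967). For Tead1 they were Nedd4 (0.944) and P2rx7 (0.933), for Tead2 Arhgef2 (0.959) and Slc8a1 (0.947), for Tead3 Bcl7c and Eif1b (0.940 each) and for Tead4 Serp2 (0.877) and A230072I06Rik (0.858). For Ccn1 they were Lamb1 (0.923) and Il6st (0.918), for Ccn2 Psd3 (0.898) and Smad1 (0.894), for Ankrd1 Vash1 (0.858) and Atp2b4 (0.855) and for Amotl2 Osbpl1a (0.954) and Gadd45b (0.950). These are descriptions of 16 points that fall into organs.

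The rest of the pathway was read at start-site peaks, which 18 of 21 Hippo kinases, adaptors and upstream regulators had. Between liver and lungs with Smad4 off, 2 of the 18 were called higher in the liver and 0 lower, against 21.4% and 5.67% of all promoter peaks. The median over the 18 was 0.44 on the log2 scale, against 0.4 over all promoter peaks. The called peaks were at Wwc1 (KIBRA, an upstream scaffold), with a mean normalized count of 1690 in Liv_OFF and 1111 in Lung_OFF (0.65, SE 0.20, adjusted p = 0.013), and Ajuba, a LIM protein that restrains Lats kinases, with 4676 and 3057 (0.62, SE 0.10, adjusted p = 0.000246). Of other TEAD cofactors, 3 of 4 had a peak, and 2 were called higher and 1 lower. Vgll4 competes with YAP for TEAD. The peak at the outermost annotated end of the Vgll4 gene is intronic, 47.9 kb from the nearest protein-coding start used for distances here, and was higher in the liver, with a mean of 2965 in Liv_OFF, 1298 in Lung_OFF and 1328 in Panc_OFF (log2 fold change over the lungs 1.22, SE 0.16, adjusted p = 6.36e-05). Vgll3 was higher by 0.83 (adjusted p = 0.079), with 270 and 450 in Liv_OFF and 141, 162 and 329 in Lung_OFF, which overlap. Vgll2 was lower, with a log2 fold change of -1.99 (adjusted p = 0.000479, means of 23 and 95.4).

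Of 18 other genes from a YAP and TAZ target signature, 16 had a start-site peak, of which 3 were called higher and 3 lower in the liver than in the lungs with Smad4 off, with a median of 0.33, beside the same shares of all promoter peaks. Nt5e (CD73, an ectonucleotidase) was higher by 0.78 (SE 0.14, adjusted p = 0.000444), F3 (tissue factor) by 0.63 (adjusted p = 0.00988) and Ptpn14, a phosphatase that binds YAP and was named after its value was seen, by 0.61 (adjusted p = 0.000385). Igfbp3, a binding protein for insulin-like growth factors, was lower, with a log2 fold change of -1.50 (SE 0.46, adjusted p = 0.0142), as were Ccdc80, a matrix protein, at -1.15 (adjusted p = 0.0685), and Axl, a receptor tyrosine kinase, at -0.74 (SE 0.14, adjusted p = 0.000567). At Ccdc80 the groups overlapped at low counts, with 38.3 and 13.9 in Liv_OFF and 51.5, 34.8 and 81 in Lung_OFF. On Smad4 restoration limma called 0 of the start-site peaks in these lists in any organ.

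Calls at peaks with and without the TEAD word were compared as shares. Between liver and lungs with Smad4 off, 39 of 77 member peaks with the word (50.6%) and 33 of 81 without it (40.7%) were called, against 50.6% and 49.1% of all peaks with and without it. Between liver and pancreas the shares were 55.8% and 55.6% among the members and 59.3% and 58% among all peaks. In the pancreas, 4 of the 5 peaks lower on restoration held the word, or 5.19% of the members with it and 1.23% of those without it, against 4.15% and 2.33% of all peaks.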

How the data were processed

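Sorted mKate2-positive cells of 16 mice were profiled by ATAC-seq. Per the labels and the methods, the authors checked reads with FastQC 0.11.5, trimmed adapters (Trim Galore, cutadapt), used Bowtie2 against mm10 and MACS2 for peak calling, merged those outside the blacklist and within 500 bp into 1 atlas with bedtools, counted reads with featureCounts and scaled them with DESeq2. The deposited values are this signal, a normalized read count per peak. A shift for the transposase, duplicate removal and the filter on the table are not given in the sources used here. Whole reads were recovered from the values (100% within 0.01 reads). The mitochondrial row was left out, leaving 136630 peaks, and depth was 22994669 to 38218315 reads in peaks per sample.

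Peaks were assigned to the nearest protein-coding start within 100 kb (GENCODE vM21 basic) and called promoter within 1000 bp. One model with 6 group means was fitted to log2(count + 1) over all peaks in limma 3.58.1 (trend, robust, 10 residual degrees of freedom) in R 4.3.3, with thresholds of 0.58 for the size of the log2 fold change and 0.1 for the adjusted p. Simulated data held known changes between Liv_OFF and Lung_OFF over 136630 peaks, with 50 peaks changed at each fold. Of peaks changed by 1.5, 2, 3 and 4 fold, 2%, 18%, 42% and 72% were called, with 23 false calls. Far more peaks were called between these groups in the data (67891), so the adjustment was stricter in the simulation. A 1.5 fold change also lies at the fold threshold. Alternatives were edgeR 4.0.16 and DESeq2 1.42.0 on the recovered reads, other scalings, a GC correction, removal of the level of surrounding peaks, a filter at a mean of 20, a pseudocount of 10, stricter thresholds, replicate blocks and leaving out each sample. Same-numbered samples are different mice; their deviations correlated at 0.491, 0.124 and 0.214 in the lungs, at -0.33, 0.0271 and -0.33 in the pancreas and at 0.0834 in the liver, so the numbers were taken to pair samples in the lungs, where the pairing comes from the data alone. Each sample is a separate mouse, and the cell line was not entered in the model. A further allele shared by all cells is not reported here.

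The members, gene lists and motifs were chosen with earlier results of these data known. The text names each start-site peak and, among called peaks whose groups do not overlap, the 4 of smallest p in each direction for Liv_OFF against Lung_OFF and for each restoration, and the 1 of smallest p in each direction for the other comparisons. It also names up to 5 genes per pathway list by absolute fold change and the 2 genes closest to each member. Tables and sequences were made in Python 3.11.15 with pandas 2.3.3 and numpy 2.4.6.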

Additional observations from a re-analysis of the deposited data

How the results depend on the processing

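Among the 113 results on single member peaks, no called change turned direction under any alternative run. No uncalled one became a call in the opposite direction. The distal peaks among these results had been picked for small p-values and groups without overlap, so a turn was unlikely there from the start. A change of sign without a call was not counted, and the peaks of the pathway lists were not run again. The direction with more member calls turned, over all 158, in 1 case, Liv_ON against Lung_ON, with 9 higher and 8 lower without Liv_ON replicate 2 in place of 20 and 27. Counts of member peaks called moved by over 1.5 times in 22 of 128 recalculations under other settings. With thresholds of 1 and 0.05 the counts were 47 for Liv_OFF against Lung_OFF (29.7%, against 35.9% of all peaks) and 58 for Liv_OFF against Panc_OFF (36.7%, against 45.5%). They were 17 for Lung_OFF against Panc_OFF (10.8%, against 10.2%) and 26 for Liv_ON against Lung_ON (16.5%, against 23.9%). For restoration they were 3 in the pancreas (1.9%, against 1.11%) and 1 in the liver (0.633%, against 0.107%). With the nearest start site of any gene type, which left 67 member peaks, they were 26, 30, 9, 17, 31 (Liv_ON against Panc_ON), 10 (Lung_ON against Panc_ON), 2 and 0. In that order these were 38.8%, 44.8%, 13.4%, 25.4%, 46.3%, 14.9%, 2.99% and 0% of the members. Over all peaks the shares were 49.7%, 58.5%, 17.3%, 35.8%, 59.4%, 27.8%, 3.42% and 0.55%. Restoration gave 8 calls in the pancreas after quantile normalization (5.06%, against 6.06% of all peaks). DESeq2 gave 10 there, 5 in the liver and 1 for the lungs. With the replicate block in every organ the liver had 1 call and the pancreas 6, and with the block and a GC correction the liver had 0. The block within the lungs, added after the data were seen, gave 11 calls in the pancreas and 6 in the liver, and changed no other count by over 1.5 times. That block concerns lung samples only, so log2 fold changes in the pancreas and the liver stayed as in the main fit. What differed there was the estimate of spread shared by all groups. The cause of the other shifts was not tested.

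Leaving out 1 sample at a time, the counts ran from 53 to 75 for Liv_OFF against Lung_OFF, 66 to 90 for Liv_OFF against Panc_OFF, 12 to 35 for Lung_OFF against Panc_OFF, 17 to 52 for Liv_ON against Lung_ON, 60 to 91 for Liv_ON against Panc_ON and 31 to 45 for Lung_ON against Panc_ON. For restoration they ran from 1 to 7 (pancreas), 0 to 5 (liver) and 0 to 0 (lungs), and from 0 to 1 for the interaction. The lowest came without Panc_OFF replicate 3, Liv_ON replicate 2, Panc_OFF replicate 2 and Liv_OFF or Liv_ON replicate 1 where the count moved by over 1.5 times, and a lone liver sample was then assumed to vary like the other groups. For the 113 results on single peaks, the other settings ended 21 calls and added 23 in 1468 recalculations, and leaving out a sample ended 20 and added 10 in 1808. In the simulated data small folds were often not called, but few peaks were changed there, so the adjustment was stricter than in the data.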
